A study of Homo sapiens with 6 samples.

Results

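Transcripts of 9 genes that detect, relay or repair stalled replication forks were followed in MDA-MB-231 cells, a mesenchymal-like breast cancer line of the basal type, with and without dinaciclib, an inhibitor of cyclin-dependent kinases of the cell cycle and of transcription. The 9 genes were SMARCAL1, TIMELESS, TIPIN, CLSPN, TOPBP1, RAD17, RAD9A, RAD1 and HUS1. They were taken as a set by name, with every probe set that the platform annotation gives to 1 of them alone. That gave 16 probe sets of 22215 tested, or 9 genes of 11963. The baseline group held 3 samples at 0 h, named E, 4 and 5, and the dinaciclib group 3 samples at 12 h, named F, 4 and 5. All 6 were cultured in RPMI with serum and antibiotics, and dinaciclib was brought into the medium from a DMSO stock. The labels name no dose, and no solvent for the baseline cells. As the series as analysed here holds no untreated sample at 12 h, the drug, the time and the solvent cannot be told apart. Nothing states that the replicates were separate cultures. A p-value here thus sets the difference between the groups only against the scatter of these samples, and that scatter may be technical.

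When a replicative polymerase stalls, the helicase ahead of it exposes single-stranded DNA, and the kinase ATR is brought there with its partner. RAD17, with the small RFC subunits, loads the ring of RAD9A, RAD1 and HUS1, called the 9-1-1 clamp, and TOPBP1 bound to that ring switches ATR on. TIMELESS and TIPIN travel with the fork as the fork protection complex and hold Claspin (CLSPN), which passes the signal to the checkpoint kinase CHEK1, while SMARCAL1 re-anneals the unwound strands and remodels the fork.

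Messenger RNA was read on oligonucleotide arrays with 1 intensity per probe set, and precision is limited by there being 6 of them. Median intensities were 53.3 to 66.2 at baseline and 40.6 to 46.8 after dinaciclib, so the arrays differ in overall brightness between the groups. The samples named with a letter, E and F, stood apart in both groups. The 5-prime control for 18S ribosomal RNA read 736 and 1155 on them, against 8273 to 9061 in the 4 numbered samples, and the log2 difference between the 3-prime and 5-prime beta-actin controls was 1.86 to 2.09 in E and F and 2.55 to 2.74 in the numbered samples. All 8 markers of a mesenchymal breast line, VIM and CD44 among them, had mean intensities of at least 100, from 591 to 8911. Of 8 luminal markers, 3 did (GATA3, EPCAM and KRT19), while CDH1 read 8.12 at baseline and 6.29 after dinaciclib and ESR1 26.8 and 14.8. The summed luminal level was 2946 to 3730 at baseline and 1363 to 1862 after dinaciclib. Most of this sum was KRT19, with means of 2597 at baseline and 1047 after dinaciclib. GATA3 read 350 and 294, and EPCAM 209 and 213, so the sum does not describe the luminal markers as a group. The 4 leukocyte markers summed to 57.5 to 73.6 at baseline and 22.4 to 57.8 after dinaciclib, and the 2 erythroid markers measured, HBB and ALAS2, to 13.1 to 26.2 and 17.3 to 42.5. At an adjusted p under 0.05, 1 mesenchymal, 2 luminal, 1 leukocyte and 0 erythroid markers were lower and 0 higher. No marker had a mean of 0, and the part of these shifts in the results below was not tested.

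RefSeq start sites were at hand for 8 of the 9 genes, in 12 windows that run from 250 bases before to 50 bases after the start (assembly GRCh38.p14). Below are 5 of these windows. TOPBP1, CLSPN and TIPIN are shown because they hold an E2F word. Of them TOPBP1 was called lower after dinaciclib and TIPIN was not, while CLSPN was dim, scattered between samples and did not pass. RAD9A and TIMELESS are shown because both hold an E-box and both transcripts were called lower after dinaciclib. SMARCAL1, RAD17, RAD1 and TOPBP1 were called lower too and hold no E-box in their windows. Capitals mark the E2F words (TTTCCCGC, TTTCGCGC, TTTGCCGC or TTTGGCGC), CCAAT and the E-box CACGTG, on either strand, read 5′ to 3′ along the gene's strand.
TOPBP1, chr3:133661892-133662191, minus strand: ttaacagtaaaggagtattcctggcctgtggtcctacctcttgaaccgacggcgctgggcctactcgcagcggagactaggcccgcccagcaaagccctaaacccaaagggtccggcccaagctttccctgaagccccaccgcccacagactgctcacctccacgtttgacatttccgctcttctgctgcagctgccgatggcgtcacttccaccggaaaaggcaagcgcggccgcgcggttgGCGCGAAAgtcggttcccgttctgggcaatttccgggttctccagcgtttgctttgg
CLSPN, chr1:35769929-35770228, minus strand: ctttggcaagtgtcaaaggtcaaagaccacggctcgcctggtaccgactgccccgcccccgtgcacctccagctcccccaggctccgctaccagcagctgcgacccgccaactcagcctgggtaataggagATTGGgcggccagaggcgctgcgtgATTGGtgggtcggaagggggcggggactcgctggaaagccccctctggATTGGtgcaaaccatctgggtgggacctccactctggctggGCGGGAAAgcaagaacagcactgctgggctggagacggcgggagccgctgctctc
TIPIN, chr15:66356636-66356935, minus strand: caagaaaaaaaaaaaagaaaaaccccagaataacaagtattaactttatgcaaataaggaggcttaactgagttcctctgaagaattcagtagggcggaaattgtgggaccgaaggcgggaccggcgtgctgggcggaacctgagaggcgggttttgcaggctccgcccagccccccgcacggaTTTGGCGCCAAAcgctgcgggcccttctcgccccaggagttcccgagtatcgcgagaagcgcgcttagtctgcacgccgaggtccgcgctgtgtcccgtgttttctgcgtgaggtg
RAD9A, chr11:67391736-67392035, plus strand: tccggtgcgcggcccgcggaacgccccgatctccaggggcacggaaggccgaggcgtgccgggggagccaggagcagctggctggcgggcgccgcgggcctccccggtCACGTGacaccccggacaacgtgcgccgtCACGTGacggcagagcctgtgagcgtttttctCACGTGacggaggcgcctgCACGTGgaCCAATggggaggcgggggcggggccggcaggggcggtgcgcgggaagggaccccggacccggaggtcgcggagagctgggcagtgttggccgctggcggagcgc
TIMELESS, chr12:56449377-56449676, minus strand: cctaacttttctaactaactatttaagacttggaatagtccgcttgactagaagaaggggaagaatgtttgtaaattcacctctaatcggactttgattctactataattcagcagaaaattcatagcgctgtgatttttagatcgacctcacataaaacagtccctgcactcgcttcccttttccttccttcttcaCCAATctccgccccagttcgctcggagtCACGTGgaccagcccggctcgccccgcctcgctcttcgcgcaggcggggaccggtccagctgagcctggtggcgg

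The E2F word lay across the start in TOPBP1 (-7 to 1) and CLSPN (-5 to 3), where it overlaps a GC box. In TIPIN both strands of a palindrome matched between -66 and -55 of 1 of its 2 windows. An E2F word was in 3 of the 12 windows of these genes and in 3.31% of all 35116 windows of that length, which can overlap and repeat a gene. CACGTG occurred at 4 places in the RAD9A window and at 1 in that of TIMELESS, in 2 of 12 windows against 7.26% of all. CCAAT was in 7 of 12 windows (34.6% of all), the GC box GGGCGG in 9 (45% of all) and TTTGAA, the CHR element of cell cycle genes, in 1, of RAD17 (15.2% of all). These matches describe letters, not sites in use.

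After dinaciclib, 10 of the 16 probe sets were lower and 0 were higher at an adjusted p under 0.05 (limma on log2(value + 1), Benjamini-Hochberg over all 22215 probe sets), while over all probe sets 13.4% were lower and 3.86% higher. At an unadjusted p under 0.05, 11 were lower and 0 higher. The share of all probe sets past that unadjusted line was not counted, so nothing is read from these counts. The 10 belong to 7 genes, SMARCAL1, TIMELESS, TOPBP1, RAD17, RAD9A, RAD1 and HUS1, with 18.2% of all genes lower on at least 1 probe set. CLSPN and TIPIN did not pass. In each of the same 10 probe sets every baseline value lay above every dinaciclib value, as in 26.5% of all probe sets, and in the other 6 the groups overlapped. The median log2 change of the 16 was -0.997, beside -0.21 over all probe sets tested. In bulk RNA, a loss of cells of 1 kind and less of a transcript per cell cannot be told apart.

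**Figure D1:**
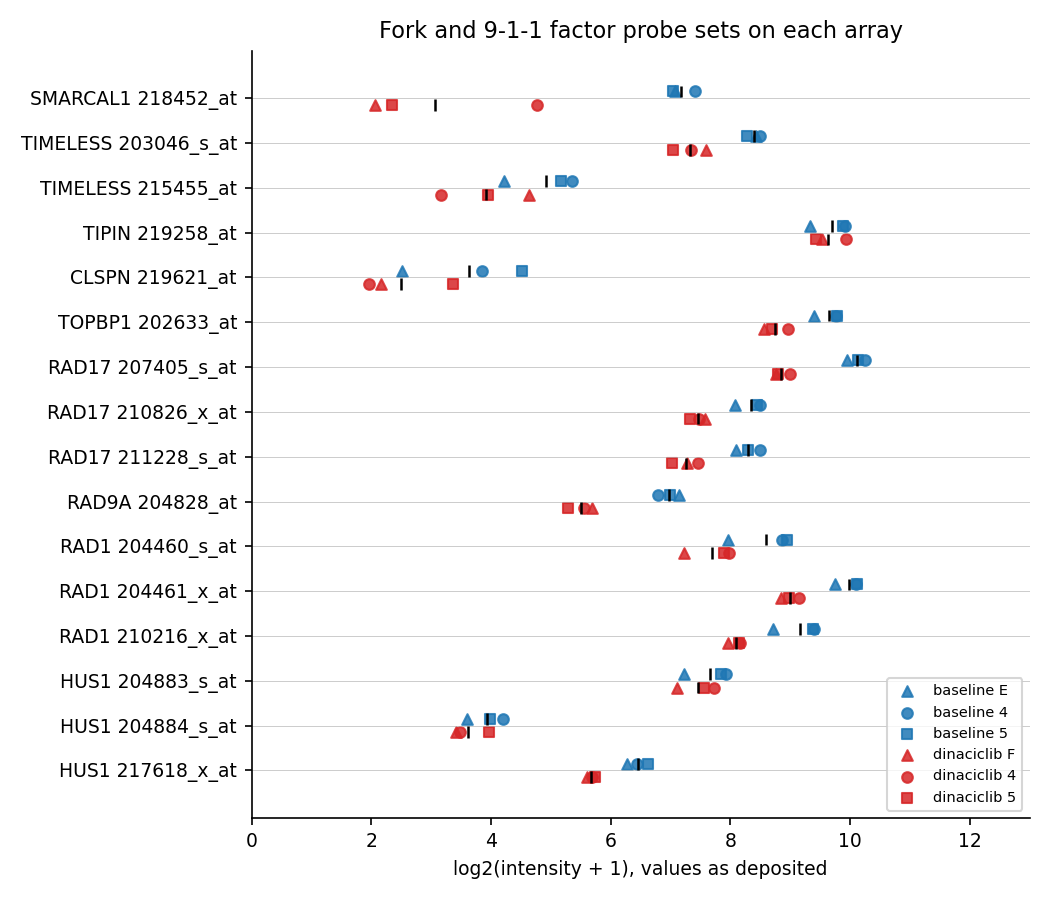
Intensity of each of the 16 probe sets on each of the 6 arrays, as log2(intensity + 1) of the deposited values. Blue symbols are baseline and red symbols dinaciclib, triangles mark the lettered samples E and F, circles and squares samples 4 and 5, and black bars are group means. The groups separate in 10 probe sets, SMARCAL1 spreads widest after dinaciclib (SD 1.49), and TIPIN and HUS1 204883_s_at overlap.

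How many members were called lower depended on the scaling of the arrays, and no scaling tried called a member higher. Among all probe sets, 9.59% were higher after quantile normalization, 15.7% with median centring and 2.34% with spiked control centring. Quantile normalization moved the median change of all probe sets from -0.21 to 0.03 and left 7 member probe sets lower (10.5% of all), of SMARCAL1, TOPBP1, RAD17, RAD9A and RAD1. With array medians set equal, called median centring here, it was 0.24 and 5 were left (8.72% of all), of SMARCAL1, RAD17, RAD9A and RAD1. Centring on the spiked control probe sets moved it to -0.29 and left 6 (10.9% of all), of SMARCAL1, TIMELESS, RAD17, RAD9A and RAD1. Of all calls, 77.6% were falls as deposited, 52.3% after quantile normalization, 35.7% with median centring and 82.3% with spiked control centring. Relative to the median probe set, the median of the members was -0.79 as deposited and -0.68 after quantile normalization. Both centrings shift all probe sets of an array alike, so they cannot move this value.

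The count also varied with the samples entered. Without baseline E, 10 member probe sets were lower, beside 12.1% of all, and without dinaciclib F 4 were (9.88% of all), of SMARCAL1, TIMELESS, RAD17 and RAD9A. Without baseline 5, dinaciclib 4 or dinaciclib 5, 3 were lower each time, of SMARCAL1, RAD17 and RAD9A, beside 5.62%, 7.79% and 7.62% of all. Without baseline 4, RAD17 and RAD9A made up the 2 that were lower (5.6% of all). The 4 numbered samples alone gave 3 (7.75% of all), of RAD17, RAD9A and RAD1. A term for lettered against numbered samples gave 11 (15.8% of all), log2(value + 16) gave 10 (18.1% of all) and a robust variance trend 11 (18.1% of all). With dim probe sets left out 11 of the 13 members kept were lower, beside 30% of the 13329 probe sets kept. That filter used the mean over all 6 arrays. SMARCAL1, with a mean log2 value of 7.17 at baseline and 3.06 after dinaciclib, was kept through its baseline values, so its call there adds no support. With 1 probe set per gene 6 of 9 were lower, beside 15.1% of the 15114 entered. RAD17 and RAD9A were the genes called lower in all of these fits.

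**Figure D2:**
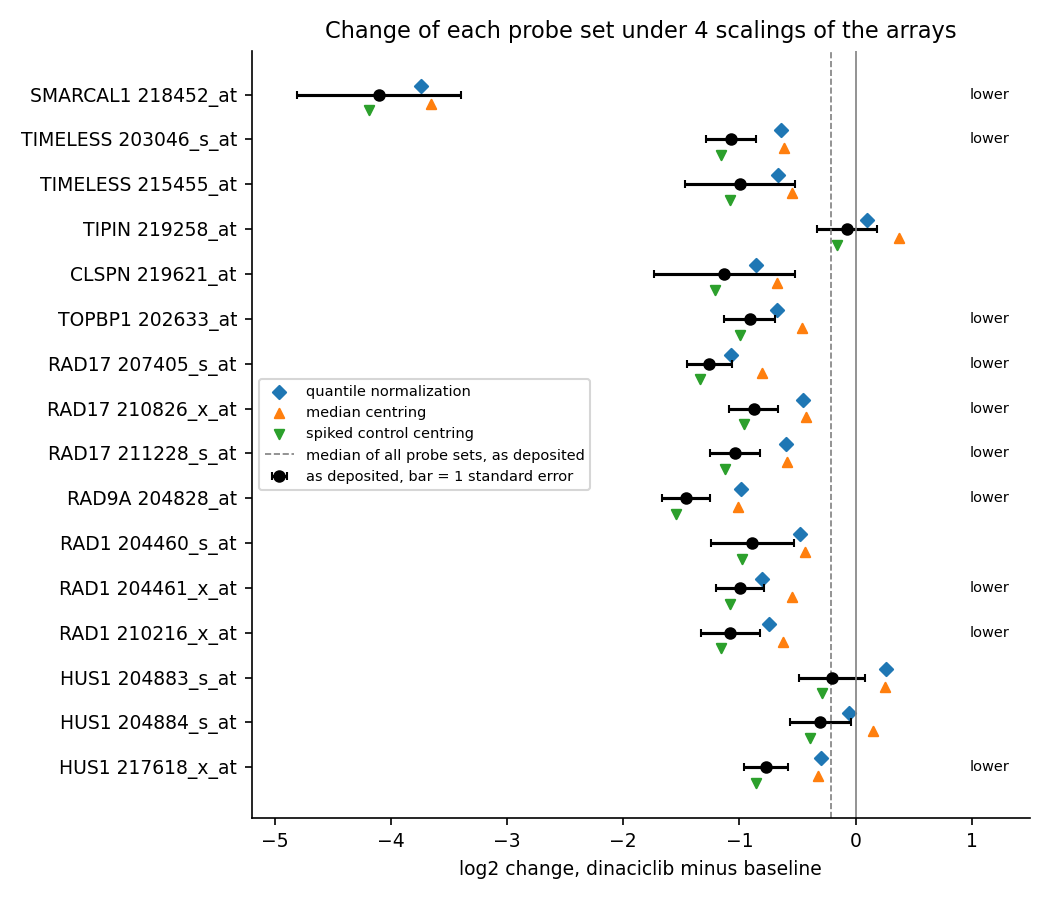
The log2 change from baseline to dinaciclib of each probe set, as deposited (black, bar 1 standard error) and under 3 other scalings of the arrays (coloured symbols). The dashed line is the median of all probe sets as deposited, -0.21, and "lower" marks the 10 probe sets called as deposited. SMARCAL1 lies between -4.19 and -3.65 under every scaling drawn, while TIPIN, HUS1 204883_s_at and HUS1 204884_s_at change sign under at least 1.

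SMARCAL1, the annealing helicase that binds RPA at stalled forks, had the lowest log2 change of the set. Its 1 probe set, 218452_at, read 133, 168 and 130 in baseline E, 4 and 5 and 3.2, 26.3 and 4.1 in dinaciclib F, 4 and 5. All dinaciclib values lay below all baseline values, and dinaciclib 4 stood above the other two treated samples. The mean fell from 144 ± 21.0 to 11.2 ± 13.1 (SD, n = 3 per group), and the log2 change was -4.10 ± 0.71 (SE, n = 3 per group, adjusted p = 0.0135 by limma). Counted from the lowest change, it ranked 6 of 22215 probe sets. As the treated mean was under 16, the size depends on the value added before the logarithm, and with log2(value + 16) the change was -2.65 (adjusted p = 0.000721). Without dinaciclib 4 the change was -4.96, without dinaciclib F -3.61, and without baseline 4 the call ended (-3.99, limma, adjusted p = 0.0546). It also ended in the numbered samples alone (-3.66, limma, adjusted p = 0.0941).

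TIMELESS, the scaffold of the fork protection complex, fell on its brighter probe set. That probe set, 203046_s_at, read 341, 360 and 308 at baseline E, 4 and 5 and 192, 160 and 131 in dinaciclib F, 4 and 5. The groups did not overlap, and the log2 change was -1.07 ± 0.22 (SE, n = 3 per group, adjusted p = 0.0217 by limma), a 2.1-fold lower level on the log2(value + 1) scale. This call was lost after quantile normalization (-0.64, limma, adjusted p = 0.0755) and median centring (-0.62, 0.0635), and in the numbered samples alone (-1.19, 0.0562). It was also lost when baseline 4 (0.0800), baseline 5 (0.0671), dinaciclib 4 (0.0683) or dinaciclib 5 (0.0650) was left out. The dimmer probe set, 215455_at, overlapped between groups, reading 17.6, 39.9 and 34.9 at baseline and 24.0, 7.99 and 14.4 after dinaciclib. Its mean dropped under 16, and its log2 change of -0.99 had a standard error of 0.47 (-0.57 with log2(value + 16)) and did not pass.

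TIPIN, which pairs with TIMELESS and contacts RPA, did not pass the test. It read 639, 958 and 944 at baseline E, 4 and 5 and 738, 970 and 691 in dinaciclib F, 4 and 5, so that the groups interleaved. The log2 change was -0.08 ± 0.26 (SE, n = 3 per group, adjusted p = 0.885 by limma), with a 95% interval from -0.69 to 0.54 that still allows a moderate fall or rise. Its sign turned with quantile normalization (0.10) and median centring (0.38), and it passed under no scaling. On each array, the log2 difference between TIMELESS and TIPIN was -0.90, -1.41 and -1.61 at baseline and -1.94, -2.59 and -2.39 after dinaciclib. The mean difference changed by -0.996 (exact permutation test, two-sided, p = 0.1, adjusted to 0.12 over 6 such differences), and 0.1 is the smallest p that 3 against 3 samples allow.

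CLSPN, the adaptor that brings CHEK1 to ATR, was dim on its only probe set. It read 4.69, 13.4 and 21.9 at baseline and 3.47, 2.91 and 9.25 after dinaciclib, and the groups overlapped. The log2 change of -1.13 had a standard error of 0.61 (adjusted p = 0.273 by limma) and a 95% interval from -2.59 to 0.33. Both group means were under 16, and with log2(value + 16) the change was -0.44. The signal was low and also scattered between samples (SD of the log2 values 1.02 at baseline and 0.75 after dinaciclib). A change of CLSPN was thus neither shown nor excluded.

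TOPBP1, the activator of ATR, fell to about the same degree as RAD1 and TIMELESS, with differences smaller than 1 standard error. Its intensities were 675, 871 and 882 in baseline E, 4 and 5 and 376, 500 and 413 in dinaciclib F, 4 and 5, with no overlap. The log2 change was -0.91 ± 0.22 (SE, n = 3 per group, adjusted p = 0.0359 by limma), a 1.88-fold lower level. It passed after quantile normalization (-0.68, limma, adjusted p = 0.0166), but not with median centring (-0.46, 0.0782), with spiked control centring (-0.997, 0.0628) or in the numbered samples alone (-0.95, 0.0682). With 1 sample left out it passed only without baseline E (0.0375). Without baseline 4, baseline 5, dinaciclib F, 4 or 5 the adjusted p was 0.117, 0.129, 0.0995, 0.0642 and 0.103.

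RAD17, the subunit that loads the 9-1-1 clamp, fell on all 3 of its probe sets. The brightest, 207405_s_at, read 981, 1213 and 1126 at baseline E, 4 and 5 and 433, 511 and 441 in dinaciclib F, 4 and 5. These groups lay far apart for their spread, and the mean fell from 1107 ± 118 to 462 ± 43.3 (SD, n = 3). The log2 change was -1.26 ± 0.19 (SE, n = 3 per group, adjusted p = 0.00959 by limma). This probe set passed under every alternative run, whichever sample was left out (adjusted p 0.0192 to 0.0479) and in the numbered samples alone (0.0443).

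The other probe sets of RAD17, 211228_s_at and 210826_x_at, had log2 changes of -1.04 (standard error 0.22) and -0.88 (standard error 0.21), with limma adjusted p of 0.0241 and 0.0351. With 1 sample left out, both passed only without baseline E (0.0336 and 0.0315), and for the rest the adjusted p was 0.0525 to 0.127. Neither passed with spiked control centring (0.0525 and 0.0655) or in the numbered samples alone (0.0702 and 0.0507), and 210826_x_at was also lost after quantile normalization (0.0638) and median centring (0.0803). An x in a probe set's name is the array design's mark that some of its probes can match other transcripts. On each array, the log2 difference between RAD17 and RFC2, a small subunit of the same loader, was 0.56 to 0.65 at baseline and -0.07 to -0.02 after dinaciclib. Its mean changed by -0.66 (exact permutation test, two-sided, p = 0.1, adjusted to 0.12, the smallest raw p being 0.1). The other small subunits were not compared with RAD17 in this way. Among them RFC4 had a log2 change of -1.41, beside -1.26 for RAD17, and RFC3 one of 0.62. The difference is thus given for RFC2 alone, not for the loader.

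Of the 3 subunits of the 9-1-1 clamp, RAD9A, whose tail binds TOPBP1, had the largest log2 change. It read 139, 110 and 126 at baseline E, 4 and 5 and 50.6, 46.2 and 37.9 in dinaciclib F, 4 and 5. The groups were separate, and the mean fell from 125 ± 14.5 to 44.9 ± 6.45 (SD, n = 3). The log2 change was -1.46 ± 0.21 (SE, n = 3 per group, adjusted p = 0.00782 by limma), a 2.75-fold lower level. Like the brightest probe set of RAD17, it passed under every alternative run, whichever sample was left out (0.0201 to 0.0401) and in the numbered samples alone (0.0433).

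RAD1, the second subunit of the ring, fell on 2 of its 3 probe sets, both with an x in the name. The brightest, 204461_x_at, read 858, 1100 and 1103 at baseline E, 4 and 5 and 457, 567 and 503 in dinaciclib F, 4 and 5, without overlap. Its log2 change was -0.998 (standard error 0.21, limma, Benjamini-Hochberg adjusted p = 0.0233), and that of 210216_x_at was -1.08 (standard error 0.25, adjusted p = 0.0330). With 1 sample left out, both passed only without baseline E (0.0273 and 0.0191). Otherwise the adjusted p was 0.0568 without dinaciclib 4 to 0.0937 without baseline 5 for the first and 0.0846 without dinaciclib 4 to 0.116 without baseline 5 for the second. Median centring ended the call of 210216_x_at (0.0585), and the numbered samples alone that of 204461_x_at (0.0530).

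The probe set of RAD1 without the mark, 204460_s_at, read 248, 463 and 490 at baseline E, 4 and 5 and 149, 251 and 236 in dinaciclib F, 4 and 5. In both groups the lettered sample was the lowest, and the groups overlapped. As deposited its log2 change of -0.89 did not pass (standard error 0.35, limma, adjusted p = 0.15). With a term that separates lettered from numbered samples it did (limma, adjusted p = 0.0180). The change was -0.74 from E to F and -0.97 in the numbered samples. All 3 probe sets of RAD1 thus had changes between -1.08 and -0.89.

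HUS1, the third subunit, differed between its probe sets. The brightest, 204883_s_at, read 149, 242 and 228 at baseline E, 4 and 5 and 137, 211 and 187 in dinaciclib F, 4 and 5, lowest in the lettered sample of each group. The groups overlapped, and the log2 change was -0.20 ± 0.28 (SE, n = 3 per group, adjusted p = 0.701 by limma) and a 95% interval from -0.89 to 0.49. Its sign turned with quantile normalization (0.26) and median centring (0.25). The dim 204884_s_at, with group means of 14.4 and 11.5, had a change of -0.30 (-0.15 with log2(value + 16)) and did not pass, and its sign turned with median centring (0.15).

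Only 217618_x_at of HUS1 fell, from 76.3, 86.1 and 97.8 at baseline to 47.7, 50.2 and 52.4 after dinaciclib. The log2 change was -0.77 (standard error 0.19, limma, adjusted p = 0.0387). It passed in no other scaling (quantile normalization 0.240, median centring 0.196, spiked control centring 0.0661), nor in the numbered samples alone (0.0753). With 1 sample left out it passed only without baseline E (0.0427), and the adjusted p was 0.0931 without dinaciclib 5 to 0.149 without baseline 5 for the rest. The log2 difference of this probe set from the brightest one was -1.48 to -0.95 at baseline and -2.05 to -1.50 after dinaciclib. Its mean changed by -0.57 (exact permutation test, two-sided, p = 0.1, adjusted to 0.12, the smallest raw p being 0.1).

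Between subunits of the clamp, the log2 difference between RAD1 and HUS1 on their brightest probe sets was 2.18 to 2.52 at baseline and 1.42 to 1.73 after dinaciclib, a change of -0.80 in the mean. That between RAD9A and HUS1 changed by -1.26, also without overlap. For each the exact permutation p was 0.1 (two-sided), adjusted to 0.12. The difference between RAD9A and RAD1 changed by -0.46, and its groups overlapped (exact permutation test, two-sided, p = 0.2). Only levels on these arrays are compared here, and the unequal changes do not show that HUS1 kept its level.

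The 4 x probe sets of the members, and all others so named, were also left out before the fit. Then 6 member probe sets of 5 genes were lower, of SMARCAL1, TIMELESS, TOPBP1, RAD17 and RAD9A, beside 14.2% of the 19787 entered. All 4 x probe sets of the members were lower as deposited, and 6 of their other 12, beside 13.4% of all probe sets. The share among all x probe sets was not counted, so nothing is read from this split. On the brightest probe set of each gene the log2 changes ran from SMARCAL1 (-4.10) over RAD9A (-1.46), RAD17 (-1.26), CLSPN (-1.13), TIMELESS (-1.07), RAD1 (-0.998) and TOPBP1 (-0.91) to HUS1 (-0.20) and TIPIN (-0.08). From RAD9A to TOPBP1 each gap between neighbours was smaller than the larger of their 2 standard errors, as was that between HUS1 and TIPIN. The gaps from SMARCAL1 to RAD9A (2.64) and from TOPBP1 to HUS1 (0.71) were larger.

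**Figure D3:**
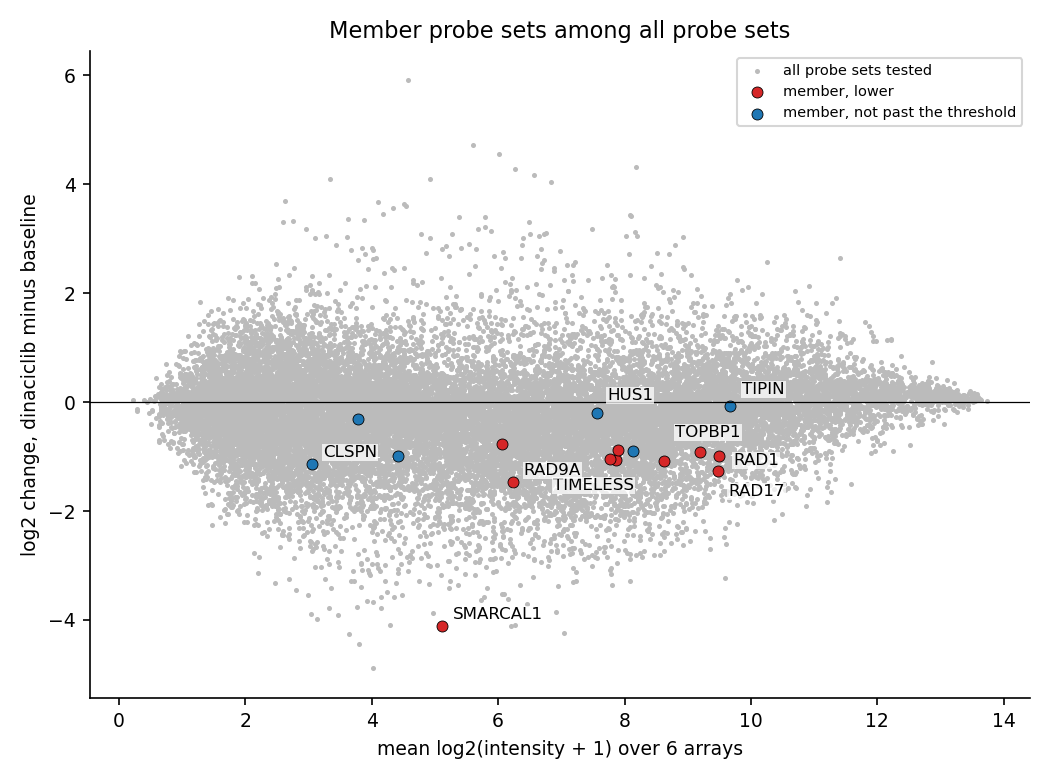
Change of every probe set tested (grey) against its mean log2(intensity + 1) over the 6 arrays, with the 16 member probe sets on top, red where called lower and blue where not. Names stand at the brightest probe set of each gene. SMARCAL1 lies at the lower edge of the cloud at -4.10, and most other members lie between -1.46 and -0.77.

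The gene whose values followed each member most closely over the 6 arrays was sought among genes with a mean log2 value of at least 6. For TOPBP1 it was RFC2 (Pearson r = 0.999 over 6 arrays), for RAD17 SEMA3A (1.000), for RAD9A PPP2R1B (0.998), for RAD1 UBXN1 (0.999) and for TIMELESS TNS3 (0.998). The closest to SMARCAL1 was TRPC1 (0.995), to TIPIN AVEN (0.993), to HUS1 ARL3 (0.996) and to CLSPN DLK2 (0.973). Such values are common with 6 arrays in 2 groups, as 1238 of 6435 genes had an r above 0.95 with RAD17 and 999 with TOPBP1, so they are a description only.

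Around these members, 38 of 48 other genes of fork signalling, remodelling and tolerance had a probe set, 62 in all. On the brightest probe set of each gene, 13 fell, 0 rose and 25 did not pass (limma, Benjamini-Hochberg), with 15.8% of all genes lower and 3.32% higher on theirs, and the median log2 change was -0.73. Over all 62 probe sets 20 were lower and 0 higher, and 31 and 2 were so at an unadjusted p under 0.05. Here too the share of all probe sets past the unadjusted line was not counted, so nothing is read from the 31 and 2.

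In the ATR module 3 of 8 measured genes fell. ATR, the kinase that the 9-1-1 clamp and TOPBP1 serve, read 669, 730 and 757 at baseline and 157, 224 and 176 after dinaciclib, a log2 change of -1.96 (standard error 0.21, limma, adjusted p = 0.00444). ETAA1, an activator of ATR that works apart from TOPBP1, had a change of -1.74 (standard error 0.32, adjusted p = 0.0158). It did not pass without baseline 4 or 5 or dinaciclib 4 or 5 (adjusted p up to 0.0622). CHEK1, the kinase downstream of Claspin, had a change of -0.41 (standard error 0.22) and did not pass.

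Of 10 genes of RPA and the clamp loaders, RFC4, which shares its loader with RAD17, fell, from 1847, 2530 and 2325 to 867, 924 and 721 (log2 change -1.41, standard error 0.22, limma, adjusted p = 0.00974). The other 9 did not pass on their brightest probe sets. Among these, RFC2 had a change of -0.60 and RFC3 one of 0.62. RFC3 and DBF4, the regulatory subunit of the CDC7 kinase (0.75), were picked out after their values were seen, because both passed as higher after quantile normalization (limma, adjusted p = 0.0131 and 0.0219).

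Fork remodelling helicases fell in 3 of 7 measured genes. BLM, a RecQ helicase that unwinds joined DNA strands, read 253, 271 and 309 at baseline and 58.8, 62.4 and 62.5 after dinaciclib (log2 change -2.16, standard error 0.18, limma, adjusted p = 0.00307). RAD54L had a change of -1.40 (standard error 0.34, adjusted p = 0.0370), which was lost after quantile normalization (0.171), under median centring (0.114) and spiked control centring (0.0581), and in the numbered samples alone (0.0755). With 1 sample left out it passed only without dinaciclib F, with an adjusted p of up to 0.0956. HLTF, which like SMARCAL1 reverses forks, had a change of -0.57 (standard error 0.19) and did not pass.

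Replisome partners fell in 3 of 6 genes and fork nucleases in 3 of 4. WDHD1, which ties the helicase to polymerase alpha, had a log2 change of -1.54 (standard error 0.20, limma, adjusted p = 0.00600). CDC7, a kinase that fires origins, had one of -1.36 (standard error 0.25, adjusted p = 0.0159). CDC7 did not pass without baseline 4 or 5 or dinaciclib 4 (adjusted p up to 0.0644). Among the nucleases, DNA2, which degrades flaps and reversed forks, had a mean of 307 ± 38.1 at baseline and 40.3 ± 4.50 after dinaciclib (SD, n = 3 per group). Its log2 change was -2.90 (standard error 0.20, limma, adjusted p = 0.00293). MUS81, which cuts stalled forks, had a change of -1.88 (standard error 0.25, adjusted p = 0.00687), lost in the numbered samples alone (0.0514). None of the 3 damage tolerance genes measured, POLH, REV1 and REV3L, passed (limma), with changes from -1.01 to -0.05. At an unadjusted p under 0.05 (limma) 1 of them was lower, a line at which the share of all genes was not counted.

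**Figure D4:**
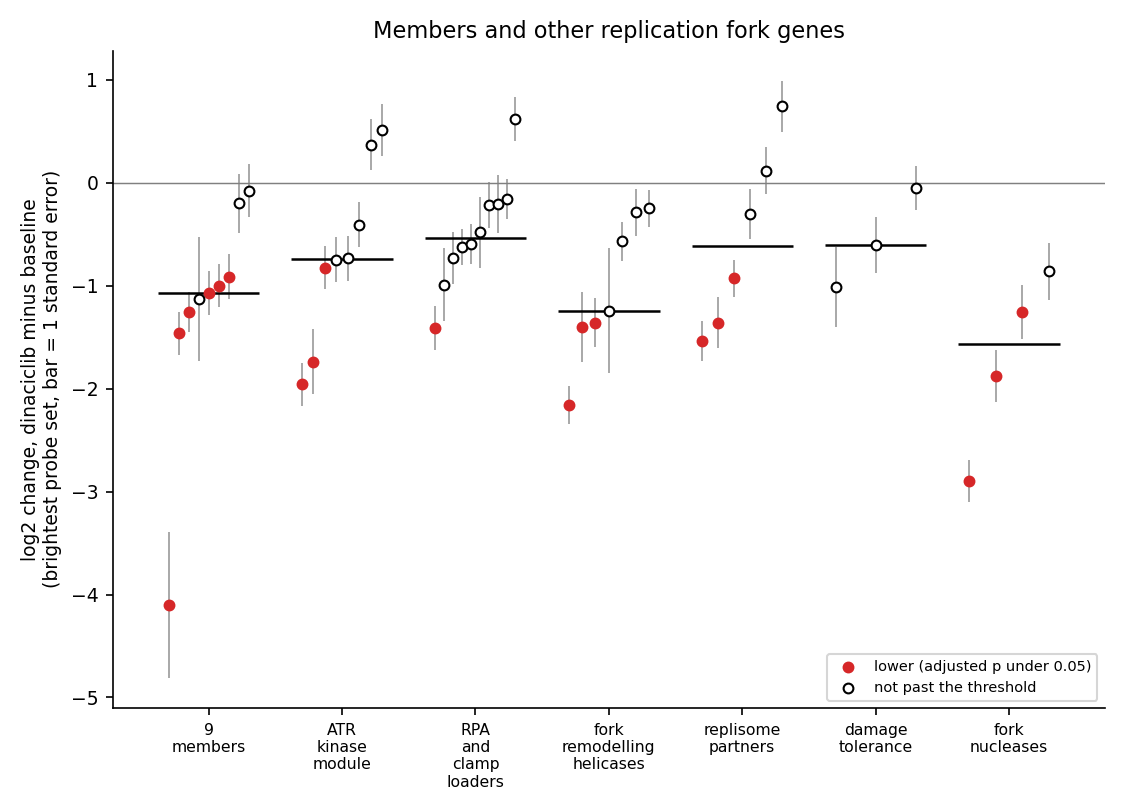
The log2 change (brightest probe set, bar 1 standard error) of the 9 members and of the other replication fork genes by group, red where lower at an adjusted p under 0.05 and open where not. Black lines are group medians. The members' lowest value, SMARCAL1 at -4.10, lies below that of every other gene drawn, of which DNA2 at -2.90 is the lowest, but with log2(value + 16) the 2 are at -2.65 and -2.52, closer than 1 standard error. No gene drawn was called higher as deposited.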

How the data were processed

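Gene expression was read in 6 samples on an oligonucleotide array. The authors deposited 1 linear intensity per probe set and array, as the values show; the background correction and scaling behind them and the genome build are not given in the sources used. Of 22277 probe sets, 62 controls were left out. Of the rest, 19064 had 1 gene, 1043 several and 2108 none named, and 19052 of the first matched a RefSeq gene identifier (GRCh38.p14, for names only).

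Values were tested as log2(value + 1) with lmFit and eBayes of limma 3.58.1 (R 4.3.3), group as the only term, with Benjamini-Hochberg adjustment over all 22215 probe sets, and called at an adjusted p under 0.05. The value added before the logarithm tends to shrink the log2 changes of dim probe sets, more so the larger it is. For SMARCAL1 the change was -4.10 with 1 added and -2.65 with 16, so such sizes are not exact. Exact permutation tests used scipy 1.17.1. Their 6 pairs were not among the planned tests. As 3 against 3 samples give no p under 0.1, these tests could not pass, and nothing is concluded from their p. The brightest probe set of a gene has its highest mean over 6 samples. The members and gene lists were chosen with earlier results of these data known. Named were all members, in each other list the 2 largest called rises and falls, and the closest genes by correlation. CHEK1, HLTF, POLH, REV1, REV3L, RFC3 and DBF4 fall outside this rule and were chosen after their values were seen. A mean intensity under 16 was taken as dim.

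Alternatives were quantile normalization, median or spiked control centring (45 probe sets), a replicate block, letter or number as a covariate, the numbered samples alone, no probe sets under the 40th percentile, log2(value + 16), a robust variance trend, 1 probe set per gene and each sample left out. Leaving out x probe sets was chosen after seeing the data. The fit was tested on simulated data. No 2 samples of a group shared values (0%), and arrays of a group correlated at 0.963 to 0.972, arrays of different groups at 0.937 to 0.947 (log2 values). Figures used matplotlib 3.10.9 in Python 3.11.15.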

Additional observations from a re-analysis of the deposited data

How the results depend on the processing

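Without exception in the alternatives run, 0 member probe sets and 0 member genes were called higher. The count of member probe sets called lower, 10 as deposited, was 5 with median centring, 6 with spiked control centring and 3 in the numbered samples alone. It was 6 with 1 probe set per gene and 6 with x probe sets left out. In these last fits the other called probe sets were not entered, and all that were entered stayed lower. Member genes called lower, 7 as deposited (18.2% of all genes), were 4 with median centring and 3 in the numbered samples. In these fits 8.72% and 7.75% of all probe sets were lower. The share of all genes was counted only as deposited. With 1 sample left out, 2 to 10 member probe sets of 2 to 7 genes were lower, fewest without baseline 4, beside 5.6% to 12.1% of all probe sets. The other genes of the list had 20 lower probe sets as deposited, 13 in the numbered samples and 9 to 18 with 1 sample left out. With 1 probe set per gene, where fewer were entered, they had 13. Their higher probe sets numbered 0 as deposited, 3 after quantile normalization, 6 with median centring, 1 with the replicate block, 2 with each of the batch covariate, log2(value + 16), no dim probe sets and the robust trend, and 0 with any 1 sample left out. Over all probe sets, 2971 were lower and 857 higher as deposited. Median centring gave 1938 lower and 3487 higher, quantile normalization 2130 higher, spiked control centring 520 higher, the robust trend 1291 higher and 1 probe set per gene, with fewer rows tested, 538 higher. The numbered samples gave 1721 lower and 449 higher, and leaving out 1 sample 1245 to 2684 lower and 362 to 629 higher, with fewer samples in these fits. Same-numbered samples deviated together only weakly (r = 0.08 for 4 and 0.08 for 5, 0.17 for E and F). For all other pairs of a baseline and a dinaciclib sample r ran from -0.11 to 0.04. Whether the samples were paired is not stated and was not tested. With the replicate block 10 member probe sets were lower (2625 of all). There, 210826_x_at of RAD17 was lost (adjusted p = 0.0674, limma) and 204460_s_at of RAD1 gained (0.0418). Of the other genes named, ETAA1 was lost with the replicate block (0.0515). Over single member probe sets, 199 alternative values stayed on their side of the threshold, 4 newly passed, 55 no longer passed, and no called value changed sign; TIPIN and 2 probe sets of HUS1, never called, changed sign in some. No cause of the shifts between scalings was tested. Low signal limits what can be said of CLSPN, 204884_s_at of HUS1 and 215455_at of TIMELESS, and the size of the change of SMARCAL1.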
